A study of Mus musculus with 4 samples.

Results

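The collagen and laminin genes encode the chains of the main structural proteins of the extracellular matrix. All entries were taken whose symbol was Col, a number, a and a number, or Lama, Lamb or Lamc and a digit. This gave 55 of 22757 genes, 44 for collagen chains and 11 for laminin chains. Col4a3bp, whose product is a ceramide carrier and no collagen, fell outside the rule. The amygdala was taken from mice of the genotype NpyCre/+;TRAPlox/lox, in which Cre made from the Npy gene switches on a tagged ribosome. TRAP (translating ribosome affinity purification) then captures, with an antibody to the tag, the RNA bound to tagged ribosomes. Both groups had this same genotype: 2 libraries of immunoprecipitated RNA (IP) and 2 of the total RNA before the immunoprecipitation (input), with both sides used and 3 mice pooled in each library. No age and no treatment is given in the labels, and no IP from mice without Cre was analysed here, so RNA carried over without a tag was not measured. The label of IP replicate 2 gives number 2 in its title and number 1 in its source name, and the title was followed.

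Collagens are built of 3 chains wound into a triple helix. Type IV collagen and laminin form separate networks that are linked into basement membranes, the thin sheets around brain vessels and under the meninges. Fibrillar collagens form the tensile fibres of vessel walls and meninges, and a few collagens, the transmembrane ones among them, sit on the surface of cells, neurons included. A laminin is a cross-shaped complex of an α, a β and a γ chain.

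Levels are in FPKM, fragments per kilobase of transcript scaled to library depth, with a 95% confidence interval for each gene and library. The values of a library summed to 334759 and 335119 FPKM in input and to 423985 and 419349 FPKM in IP, a ratio of 1.26. Read totals were not used here. The typical width of an interval on either side of its value was 68.5% to 80.2% at 0.1 to 0.3 FPKM, 20.6% to 22.7% at 1 to 2 FPKM and 9.05% to 9.86% at 5 to 10 FPKM, so low members were measured poorly. Npy itself, the gene that drives Cre, was 102.3 ± 4.38 FPKM (SD, n = 2) in input and 1204 ± 51.7 FPKM (SD, n = 2) in IP.

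Most collagen and laminin RNAs were scarce in amygdala. The mean input level was under 1 FPKM for 38 of the 55 genes and under 0.1 FPKM for 8 of them. Only 6 genes had a mean of at least 1 FPKM in IP, Col25a1, Lamb1, Col9a2, Col6a1 and Col4a2 among them. At the other end, 5 collagen genes were listed at 0 in at least 1 IP library, and Col4a3 and Col4a6 in both.

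In 49 of the 55 genes the higher IP value was under the lower input value, in 39 of 44 collagens and 10 of 11 laminins. Among all 18022 genes above 0 in any library, 42.8% lay below in this way and 33.5% lay above. Col25a1 was the only member with both IP values above both input values, and the groups overlapped for Col24a1, Col9a2, Col9a1, Col14a1 and Lamb3. When the confidence limits of the 4 libraries were compared in place of the values, 31 genes stood apart downward, 1 upward and 23 overlapped, against 21.8% downward and 20.7% upward among all genes. Low genes in general lay lower in IP. Among the 8963 genes with a mean over the 4 libraries from 0.1 to 10 FPKM, where 44 members lie, both IP values were below both input values for 58.9%, and for 88.6% of those members. The median ratio of input to IP was 4.38 for the 43 of these members above 0 in every library and 1.35 for 8525 such genes. Members and all genes were not matched on level within this range. In pooled tissue, a smaller share of a cell type in the captured RNA and less of an RNA per cell cannot be told apart.

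**Figure D1:**
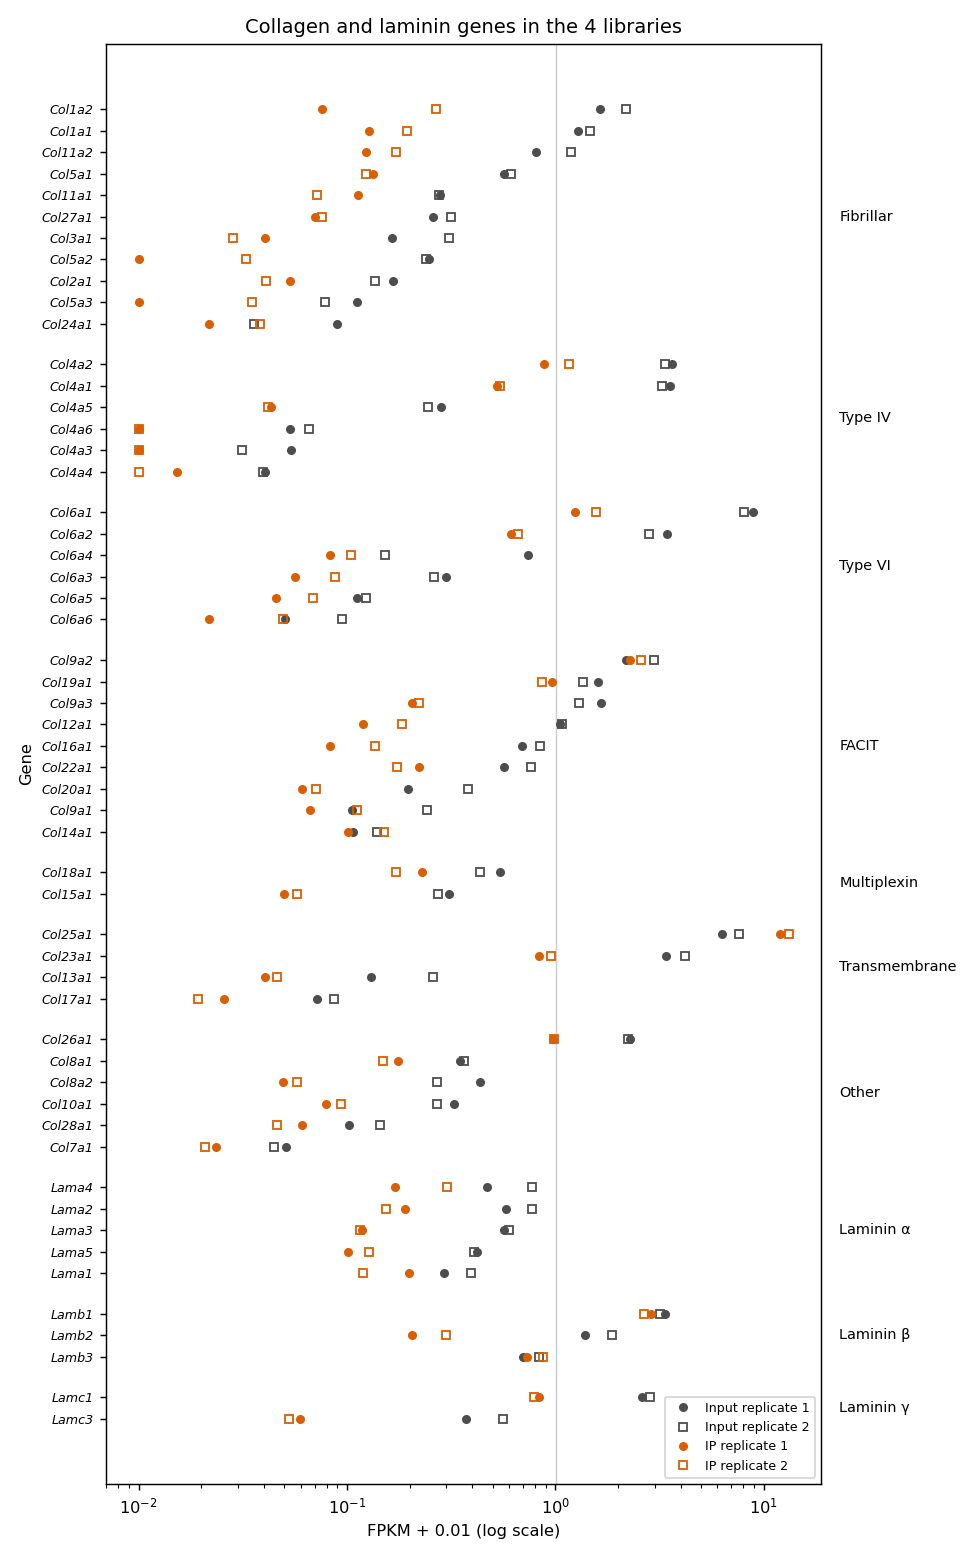
FPKM + 0.01 (log scale) of 54 collagen and laminin genes by class, with 1 point per library for 2 input (grey) and 2 IP libraries (orange). The IP points lie to the left of the input points for 48 genes, to the right for Col25a1, and among them for 5 genes, Col9a2 and Lamb3 included.

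The difference between IP and input was tested with limma on log2(FPKM + 1), with Benjamini-Hochberg adjustment over all genes and a threshold of 0.05. Such changes understate those of genes near or under 1 FPKM, so the ratio of mean FPKM is given beside them. Of 12416 genes at 1 FPKM or more in 2 libraries, 33.9% were lower and 37.0% higher in IP. The members tested were 13 collagens, of which 11 were lower and 1 higher, and 4 laminins, of which 3 were lower. This count is no support for a lower level, because 11 of the 17 were under 1 FPKM in both IP libraries and passed the minimum through input alone. Col4a2 reached 1 FPKM in IP replicate 2 but not in IP replicate 1, so it too met the minimum through its input values. For all these members the P value from a fit with a minimum on the mean of all libraries is given as well. A fit to the 15222 genes with a mean over all 4 libraries of at least 0.1 FPKM, chosen after seeing the data, took 44 members. In it 26 of 33 collagens and 8 of 11 laminins were lower and 1 collagen was higher, against 33.6% of all genes lower and 30.4% higher. Some members passed this minimum too through input alone, such as Col5a2 with 0.238 and 0.230 FPKM in input and 0 and 0.0228 FPKM in IP. Taken alone, these counts are therefore no support for a lower level either. The counts fell to 13 collagens and 4 laminins after quantile normalization, to 15 collagens without IP replicate 1 and to 14 without IP replicate 2. Of all 15222 genes, 4057 were lower after quantile normalization and 5122 before it. The P values rest on the spread between 2 pools in each group, which limma moderated toward a trend over all genes tested.

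**Figure D2:**
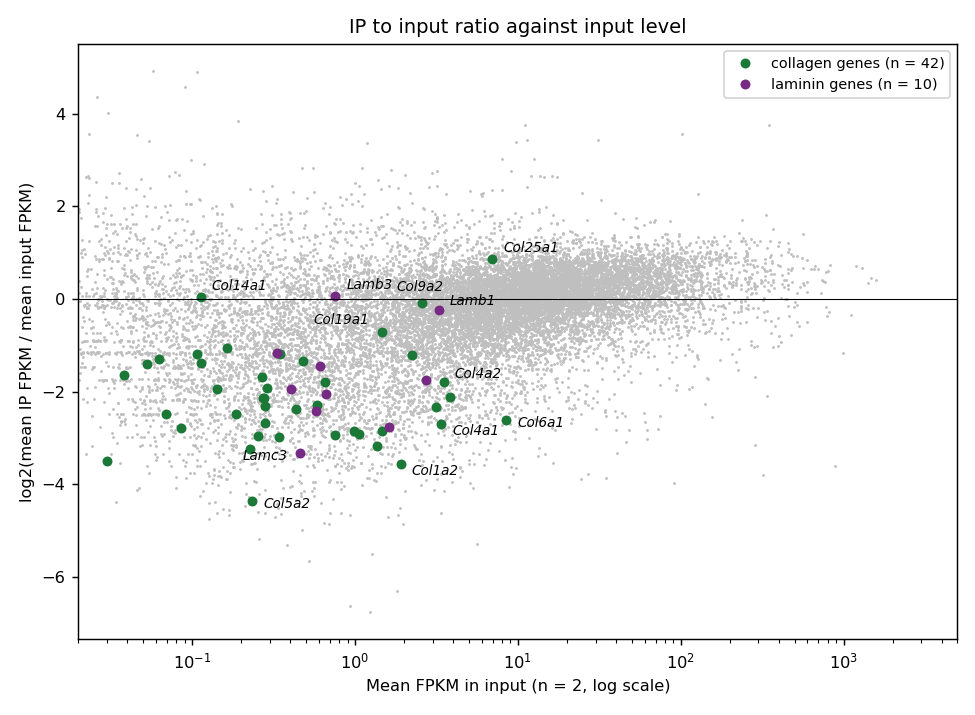
Log2 ratio of mean IP to mean input FPKM (n = 2 each) against mean input FPKM on a log scale, for all genes (grey), 42 collagen genes (green) and 10 laminin genes (purple). Col4a3 and Col4a6, listed at 0 in both IP libraries, have no ratio, and Col25a1 is the member farthest above 0.

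Type IV collagen, the network former of basement membranes, was lower in IP for all 6 chain genes by non-overlap of the values, and its summed level went from 7.25 ± 0.434 FPKM (SD, n = 2) in input to 1.57 ± 0.206 FPKM in IP. The confidence limits overlapped for Col4a3 and Col4a4. By the same rule on values, 42.8% of all genes above 0 in a library were lower. Col4a1 and Col4a2 encode the chains of the common form. Col4a1 measured 3.53 and 3.24 FPKM in the 2 input libraries and 0.513 and 0.533 FPKM in the 2 IP libraries. Col4a2 measured 3.64 and 3.37 FPKM in input and 0.875 and 1.15 FPKM in IP. Neither gene's groups overlapped. For Col4a1 mean input was 6.47-fold IP (log2 change -1.52, SE 0.09, limma adjusted P = 4.53e-05, or 0.000107 from a mean of 0.1 FPKM). For Col4a2 it was 3.46-fold (log2 change -1.16, SE 0.10, limma adjusted P = 0.000167, or 0.000362 from a mean of 0.1 FPKM). The ratio of Col4a1 to Col4a2 was 0.969 and 0.962 in the input libraries and 0.587 and 0.462 in the IP libraries. It was lower in both IP libraries. With 2 libraries against 2, an exact two-sided permutation test of such a ratio cannot go below P = 0.333. The other 4 chains, Col4a3 to Col4a6, known best from kidney and other specialised basement membranes, had input means from 0.0299 to 0.253 FPKM.

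Col4a1 and Col4a2 lie head to head on chromosome 8 (mm10, 11198423 to 11312826 and 11312829 to 11449287), with 2 bases between the deposited gene entries. In the GENCODE annotation, by contrast, exons of the 2 genes share 22 bases on opposite strands. The 78 bases that the promoter windows of both genes share (chr8:11312777-11312854, plus strand, RefSeq, GRCm38.p6) are shown because the start sites of both genes lie in them. A promoter window here covers 250 bases before a start site and 50 after it. Capitals mark the single match to GGGCGG, a GC box. In the full windows, searched on both strands, CCAAT matched at -145 from the start of Col4a1 and at -32 from that of Col4a2, and GGGCGG matched at 2 further places in the window of Col4a2. TATAAA was not among the letters of either window. Of 32851 mouse promoter windows of this length, 35.7% hold GGGCGG, 13.6% TATAAA and 37.4% CCAAT.
Col4a1 and Col4a2 shared: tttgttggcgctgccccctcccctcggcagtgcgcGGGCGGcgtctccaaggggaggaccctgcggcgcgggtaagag

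Another 2 pairs of type IV genes also adjoin. Col4a4 and Col4a3 on chromosome 1 are 71 bases apart, and Col4a6 and Col4a5 on the X chromosome 1342 bases apart. Of these 4 genes, Col4a5 measured 0.272 and 0.234 FPKM in input and 0.0332 and 0.0319 FPKM in IP (limma adjusted P = 0.0189 in the fit from a mean of 0.1 FPKM). This call was lost without IP replicate 1 (limma adjusted P = 0.0798), without IP replicate 2 (limma adjusted P = 0.0822) and after quantile normalization (limma adjusted P = 0.216). The remaining 3 were too low for either fit.

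The laminin α chains carry the main cell-binding domains of the complex. All 5 α genes had both IP values below both input values, against 42.8% of all genes above 0 in a library, and their sum went from 2.59 ± 0.436 FPKM (SD, n = 2) to 0.748 ± 0.0310 FPKM. The confidence limits overlapped for Lama1 and Lama4. None of the α genes reached the level for the first fit. In the fit from a mean of 0.1 FPKM, Lama2, Lama3, Lama4 and Lama5 were lower, with limma adjusted P from 0.00215 to 0.0328. The Lama4 call was lost without input replicate 2 (limma adjusted P = 0.123), IP replicate 1 (limma adjusted P = 0.152) or IP replicate 2 (limma adjusted P = 0.0609), and that of Lama5 without IP replicate 1 (limma adjusted P = 0.0537). After quantile normalization the calls of Lama2, Lama4 and Lama5 were lost (limma adjusted P of 0.0699, 0.528 and 0.202). Lama2, the α chain of muscle and of glial and vascular basement membranes, measured 0.569 and 0.761 FPKM in input and 0.179 and 0.144 FPKM in IP. Lama4, a chain of vessel basement membranes, measured 0.459 and 0.765 FPKM in input and 0.160 and 0.292 FPKM in IP. Lama1 measured 0.283 and 0.384 FPKM in input and 0.188 and 0.110 FPKM in IP, and its change did not pass (log2 change -0.22, limma adjusted P = 0.0718).

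The 3 laminin β genes differed from each other. Lamb2, a β chain found in mature vessels and at synapses, measured 1.38 and 1.87 FPKM in input and 0.195 and 0.288 FPKM in IP, a 6.74-fold lower mean in IP (log2 change -1.08, SE 0.12, limma adjusted P = 0.000446, or 0.000699 from a mean of 0.1 FPKM). Lamb1, the most abundant laminin RNA in all 4 libraries, measured 3.36 and 3.18 FPKM in input and 2.88 and 2.66 FPKM in IP. Its groups did not overlap, but the difference of 1.18-fold was small. The log2 change of -0.18 had a 95% confidence interval from -0.39 to 0.03 and did not pass (limma adjusted P = 0.0999). After each library was rescaled to the same FPKM sum it was lower (log2 change -0.52, limma adjusted P = 0.00405), and after quantile normalization the value was 0.16 (limma adjusted P = 0.142). Lamb3, a β chain of epithelial basement membranes, measured 0.693 and 0.821 FPKM in input and 0.726 and 0.859 FPKM in IP. The 4 values interleaved. The change was 0.03 on the log2 scale in the fit from a mean of 0.1 FPKM (limma adjusted P = 0.795), -0.19 after rescaling (limma adjusted P = 0.301), and 0.41 after quantile normalization (limma adjusted P = 0.0106).

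Lamc1, which encodes the γ chain of most laminins, measured 2.59 and 2.83 FPKM in input and 0.827 and 0.783 FPKM in IP, a 3.37-fold difference (log2 change -1.04, SE 0.09, limma adjusted P = 0.000153, or 0.000284 from a mean of 0.1 FPKM). Lamc3 measured 0.364 and 0.554 FPKM in input and 0.0497 and 0.0426 FPKM in IP, a 9.94-fold difference (limma adjusted P = 0.00619 in the fit from a mean of 0.1 FPKM).

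The products of Lamb1 and Lamc1 are parts of the same common laminins. The ratio of their RNAs was 1.30 and 1.13 in input and 3.48 and 3.40 in IP. Within the summed laminin level, Lamb1 made up 26.5% and 21.9% in input and 43.97% and 41.4% in IP. The α chains together made up 17.9% and 19.9% in input and 11.1% and 11.97% in IP.

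Type VI collagen forms beaded filaments between basement membranes and the matrix beyond. Its genes summed to 12.5 ± 1.46 FPKM (SD, n = 2) in input and 2.24 ± 0.339 FPKM in IP. All 6 genes had both IP values below both input values, against 42.8% of all genes above 0 in a library. The confidence limits overlapped for Col6a4, Col6a5 and Col6a6. Col6a1, the most abundant collagen RNA in input, measured 8.93 and 8.06 FPKM there and 1.23 and 1.55 FPKM in IP. The difference was 6.10-fold (log2 change -1.99, SE 0.10, limma adjusted P = 3.22e-05). Col6a2 measured 3.44 and 2.82 FPKM in input and 0.600 and 0.652 FPKM in IP, a 5.001-fold difference (log2 change -1.34, SE 0.11, limma adjusted P = 0.000114, or 0.000243 from a mean of 0.1 FPKM). The Col6a1 to Col6a2 ratio ran from 2.05 to 2.86 over the 4 libraries. Col6a3, the third chain of the common trimer, measured 0.288 and 0.253 FPKM in input and 0.0461 and 0.0775 FPKM in IP (limma adjusted P = 0.0259 in the fit from a mean of 0.1 FPKM). The call was lost without IP replicate 1 (limma adjusted P = 0.117), without IP replicate 2 (limma adjusted P = 0.0804) and after quantile normalization (limma adjusted P = 0.381). Col6a4 measured 0.729 FPKM in input replicate 1 but 0.142 FPKM in input replicate 2, and its change did not pass (limma adjusted P = 0.14, or 0.0126 without input replicate 2).

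The fibrillar collagens were the class with the largest ratio of summed levels, from 6.13 ± 0.870 FPKM (SD, n = 2) in input to 0.820 ± 0.213 FPKM in IP, or 7.48-fold. The values of IP were under those of input for 10 of the 11 genes, Col24a1 being the exception at 0.0801 FPKM or less in every library. Of all genes above 0 in a library, 42.8% were lower in this way. The confidence limits also overlapped for Col2a1 and Col5a3. The partners of type I collagen, the main fibre former, were the most abundant. Col1a1 measured 1.28 and 1.45 FPKM in input and 0.118 and 0.185 FPKM in IP, a 9.03-fold difference (log2 change -1.04, SE 0.10, limma adjusted P = 0.000231, or 0.000297 from a mean of 0.1 FPKM). Col1a2 measured 1.63 and 2.18 FPKM in input and 0.0658 and 0.257 FPKM in IP, an 11.8-fold difference (log2 change -1.32, SE 0.14, limma adjusted P = 0.000306, or 0.000552 from a mean of 0.1 FPKM). For Col1a2 the IP replicates themselves were several-fold apart, so the size of its ratio is loosely held. Col3a1, Col5a1, Col5a2, Col11a1, Col11a2 and Col27a1 were also lower in the fit from a mean of 0.1 FPKM (limma adjusted P from 0.00193 to 0.0455). Of these, the calls of Col3a1, Col5a2, Col11a1 and Col27a1 were lost without IP replicate 1 (limma adjusted P from 0.0836 to 0.133), without IP replicate 2 (from 0.0636 to 0.166) and after quantile normalization (from 0.149 to 0.651). Col3a1 also lost its call without input replicate 2 (limma adjusted P = 0.0764), and Col11a1 without either input replicate (0.0611 and 0.061). With the replicate number as a block the calls of Col3a1 (limma adjusted P = 0.0554) and Col11a1 (limma adjusted P = 0.0649) were lost as well.

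FACIT collagens, which decorate the surface of fibrils, did not move together. Their summed level was 8.53 ± 0.660 FPKM (SD, n = 2) in input and 4.20 ± 0.266 FPKM in IP. The 3 genes of type IX collagen, a cartilage protein whose genes are also transcribed in brain, show the spread. Col9a3 measured 1.64 and 1.29 FPKM in input and 0.194 and 0.212 FPKM in IP, a 7.21-fold difference (log2 change -1.03, SE 0.11, limma adjusted P = 0.000326, or 0.000456 from a mean of 0.1 FPKM). Exons of Tcfl5, on the opposite strand, cover 6.1% of the Col9a3 exon bases. Col9a2 measured 2.17 and 2.98 FPKM in input and 2.28 and 2.56 FPKM in IP. Its IP values lay between its input values. The log2 change was -0.06 with a 95% confidence interval from -0.37 to 0.26 (limma adjusted P = 0.711), an interval that leaves room for a modest change either way. Col9a1 measured 0.0961 and 0.232 FPKM in input and 0.0563 and 0.101 FPKM in IP, and the groups overlapped. The ratio of Col9a2 to Col9a3 was 1.32 and 2.31 in input and 11.7 and 12.1 in IP.

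Among the other FACIT genes, Col12a1 measured 1.05 and 1.07 FPKM in input and 0.109 and 0.174 FPKM in IP, a 7.48-fold difference (log2 change -0.85, SE 0.10, limma adjusted P = 0.00044, or 0.000427 from a mean of 0.1 FPKM). That call was lost after quantile normalization (-0.21, limma adjusted P = 0.111) and once the trend with transcript length was taken out (-0.28, limma adjusted P = 0.052). Col19a1, which encodes a collagen made by a subset of cortical and hippocampal interneurons, measured 1.59 and 1.34 FPKM in input and 0.951 and 0.849 FPKM in IP. It fell by 1.63-fold (log2 change -0.37, SE 0.10, limma adjusted P = 0.0155, or 0.0157 from a mean of 0.1 FPKM). This call was lost without input replicate 1 (limma adjusted P = 0.065), without IP replicate 2 (limma adjusted P = 0.0649), and with no minimum level (limma adjusted P = 0.0605). After quantile normalization the value was 0.10 (limma adjusted P = 0.446). Col14a1, a fibril-associated collagen of dense connective tissue, measured 0.0963 and 0.129 FPKM in input and 0.0911 and 0.141 FPKM in IP, a level too low to show a modest difference. Col16a1 and Col22a1 were lower in the fit from a mean of 0.1 FPKM, Col22a1 not after quantile normalization (limma adjusted P = 0.149). Col20a1 did not pass (limma adjusted P = 0.0503), but did with the replicate block (0.0494), after rescaling (0.0256) and without input replicate 1 (0.0208).

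**Figure D3:**
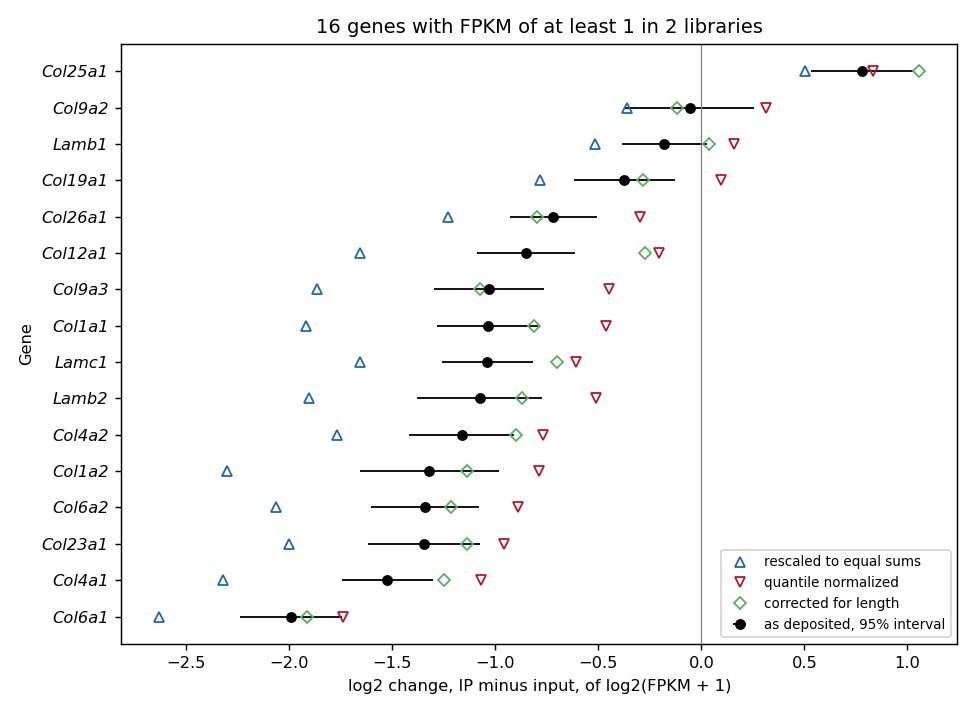
Log2 change, IP minus input, of log2(FPKM + 1) with its 95% confidence interval (black) for 16 of the members tested in limma (n = 2 libraries per group), and the change after rescaling, quantile normalization and length correction (open symbols). The interval of Col25a1 lies above 0, those of Col9a2 and Lamb1 cross 0, and the other 13 lie below 0, with the quantile value of Col19a1 above 0.

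The transmembrane collagens, anchored in the cell membrane with a collagen domain outside, held the only member that was higher in IP. Col25a1 encodes the precursor of the collagenous component found in Alzheimer amyloid plaques and is a neuronal membrane protein needed for the innervation of muscle by motor axons. It measured 6.29 and 7.65 FPKM in input and 12.04 and 13.2 FPKM in IP. Both IP libraries were well above both input libraries. The difference was 1.81-fold (log2 change 0.78, SE 0.10, limma adjusted P = 0.000745), and 1.44-fold after rescaling each library to the same FPKM sum. Every alternative tried left the log2 change positive and past the threshold, from 0.50 after rescaling to 1.06 after correction for transcript length. Col23a1, of the same class, measured 3.41 and 4.21 FPKM in input and 0.826 and 0.948 FPKM in IP, a 4.29-fold difference downward (log2 change -1.34, SE 0.11, limma adjusted P = 0.000129, or 0.000289 from a mean of 0.1 FPKM). Col13a1, a collagen of the neuromuscular junction, and Col17a1, of skin hemidesmosomes, had means of 0.185 and 0.0695 FPKM in input, with both IP values lower but overlapping confidence limits. Col13a1 did not pass (limma adjusted P = 0.0947), but did without input replicate 1 (0.0331).

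Col25a1 is on chromosome 3 (mm10, 130180845 to 130599883, plus strand). Its RefSeq promoter window (GRCm38.p6, chr3:130180595-130180894, plus strand) is shown because it belongs to the single gene of the families that rose. Capitals mark matches to ATGCAAAT, the octamer bound by POU factors, here as its reverse complement at position -167 from the start site, and to ATGCTAAT, a variant with 1 changed letter, at -154 and -68. These letters were chosen after the sequence had been read.
Col25a1 promoter: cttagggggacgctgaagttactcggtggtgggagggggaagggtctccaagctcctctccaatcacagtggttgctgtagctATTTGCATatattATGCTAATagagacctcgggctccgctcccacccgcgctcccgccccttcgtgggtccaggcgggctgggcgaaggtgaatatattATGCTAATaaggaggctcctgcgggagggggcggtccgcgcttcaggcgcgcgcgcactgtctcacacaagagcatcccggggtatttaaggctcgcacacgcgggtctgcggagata

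On both strands, ATGCAAAT was present in 1.74% and ATGCTAAT in 0.919% of the 32851 mouse windows. At least 2 matches to ATGCTAAT occurred in 4 windows (0.0122%), and with a match to ATGCAAAT besides in that of Col25a1 alone. Of the 40 members with a promoter window in the table, 2 held ATGCAAAT and 1 held ATGCTAAT. A match is a description of the letters and not a site of binding.

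**Figure D4:**
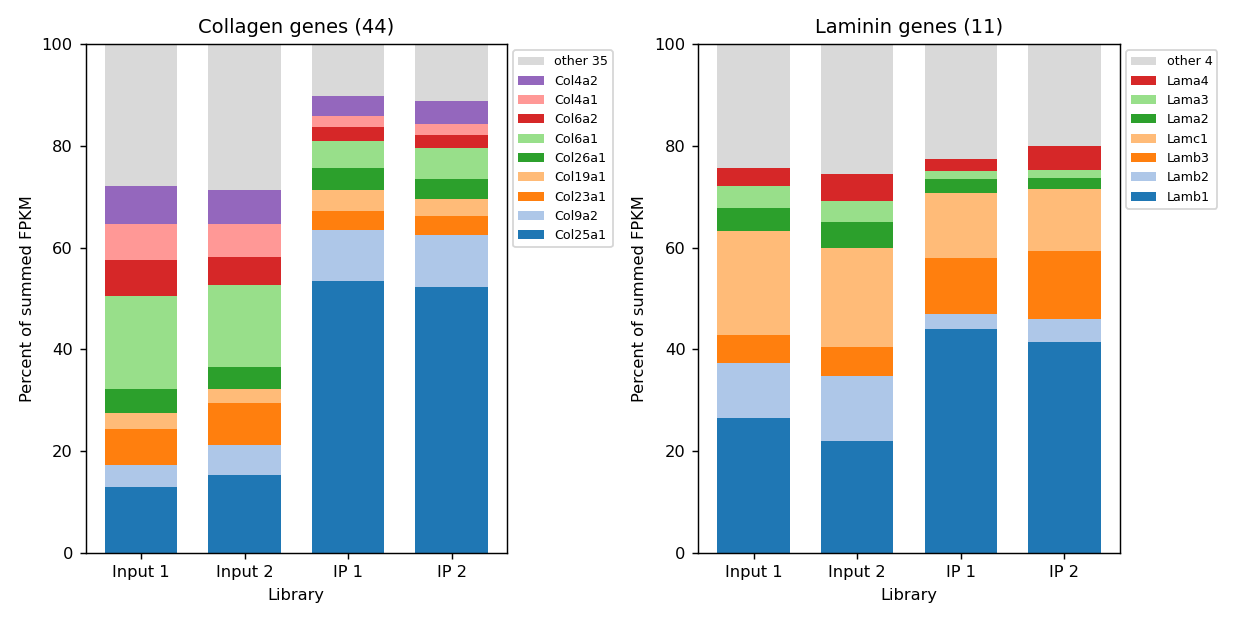
Share (%) of the summed FPKM of the 44 collagen genes (left) and the 11 laminin genes (right) in each of the 4 libraries, stacked by gene, with 35 collagens and 4 laminins joined in grey. Col25a1 goes from 12.9% and 15.2% in input to 53.3% and 52.3% in IP, and Lamb1 from 26.5% and 21.9% to 43.97% and 41.4%.

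With the summed level of the other collagens lower, Col25a1 dominated the collagen RNA in IP. It made up 12.9% and 15.2% of the summed collagen level in the input libraries and 53.3% and 52.3% in the IP libraries. Col9a2 made up 4.44% and 5.92% in input and 10.1% in each IP library. Col6a1 went the other way, from 18.3% and 16.0% to 5.45% and 6.15%. The summed level of the 43 collagens other than Col25a1 was 42.6 FPKM in each input library and 10.5 and 12.1 FPKM in the IP libraries.

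Of the remaining collagens, Col26a1, a small secreted collagen, measured 2.26 and 2.22 FPKM in input and 0.961 and 0.978 FPKM in IP, a 2.31-fold difference (log2 change -0.72, SE 0.09, limma adjusted P = 0.000542, or 0.000796 from a mean of 0.1 FPKM). The multiplexins Col15a1 and Col18a1, heparan sulfate or chondroitin sulfate collagens of vessel basement membranes, were lower in the fit from a mean of 0.1 FPKM (limma adjusted P of 0.0158 and 0.0198). Col8a1 and Col8a2, collagens of endothelium and cornea, and Col10a1, of growth plate cartilage, were lower in that fit too, Col8a1 not with the replicate block (limma adjusted P = 0.0671). The Col10a1 entry lies inside that of Nt5dc1, which measured 0.78 and 0.82 FPKM in input and 0.11 and 0.23 FPKM in IP. Exons of Nt5dc1 cover 0.6% of the Col10a1 exon bases, and a part of Nt5dc1 RNA in the Col10a1 level was not tested. All 5 of these genes, Col15a1, Col18a1, Col8a1, Col8a2 and Col10a1, lost their call without IP replicate 1 (limma adjusted P from 0.0571 to 0.111), without IP replicate 2 (from 0.0683 to 0.153) and after quantile normalization (from 0.124 to 0.998). Without input replicate 1 the calls of Col18a1 (0.0571) and Col8a1 (0.0534) were lost, and without input replicate 2 that of Col8a1 (0.0625). Col7a1 and Col28a1 were too low for either fit, with both IP values below both input values but overlapping confidence limits.

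Members have long transcripts, and long transcripts as a whole were lower in IP. The median length was 5.63 kb for the 17 tested members and 3.19 kb for all tested genes. The 2090 tested genes at least as long as that median had a median log2 change of -0.35, and 59.9% of them were lower in IP. The median over all tested genes was 0.02. After the trend with length was removed, the log2 change was 1.06 for Col25a1, 0.04 for Lamb1, -0.12 for Col9a2, -0.90 for Col4a2 and -1.91 for Col6a1, members with a mean of at least 1 FPKM in IP. Rescaling each library to a sum of 1000000 FPKM, which also makes the added 1 smaller against the values, moved the median of all genes to -0.29, with 53.9% lower and 17.9% higher.

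**Figure D5:**
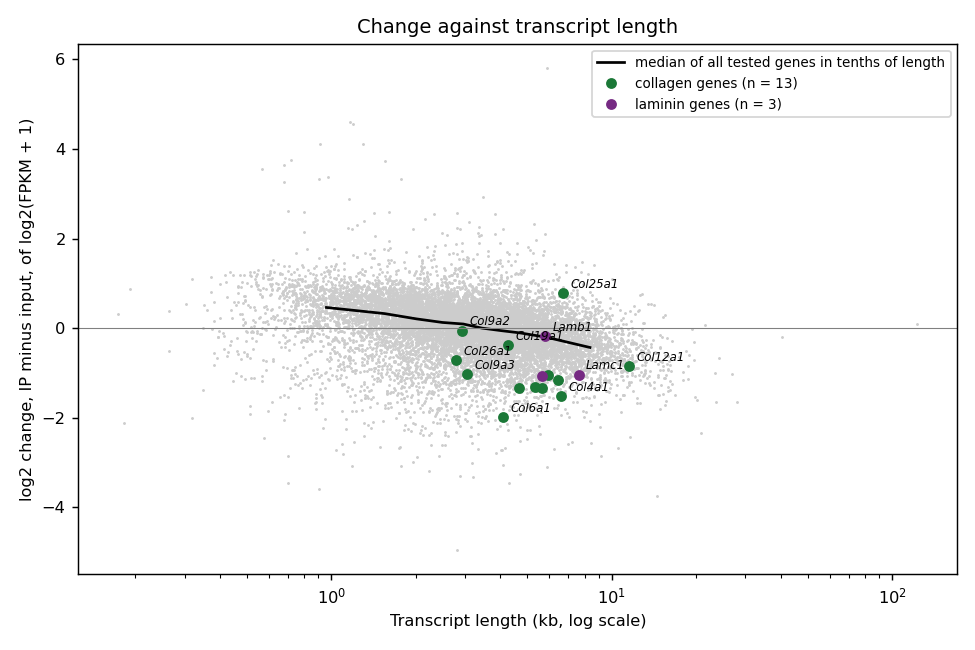
Log2 change, IP minus input, of log2(FPKM + 1) against transcript length (kb, log scale) for all tested genes (grey) and 16 tested members, with the median of all genes in 10 bins of length as a line. The line goes from 0.46 in the bin of the shortest transcripts to -0.43 in that of the longest, and Col25a1 at 6.70 kb lies above it while most other members lie below it.

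RNAs for proteins that work with collagen and laminin were mostly lower or did not pass. Here too the minimum of 1 FPKM let some genes in through input alone. The counts are therefore those of the fit from a mean of 0.1 FPKM, in which 33.6% of all genes were lower and 30.4% higher. That lower minimum was also passed by some genes through input alone, Nid1 among them. Of 6 basement membrane partners, 5 were tested and 4 were lower. At the higher minimum the values were, for Sparc, a collagen-binding glycoprotein, a log2 change of -2.10 (limma adjusted P = 4.53e-05), for Agrn, a heparan sulfate proteoglycan, -0.98 (limma adjusted P = 9.66e-05), and for the fibronectin gene Fn1 -0.89 (limma adjusted P = 0.00413, or 0.00609 from a mean of 0.1 FPKM). Fn1 was under 1 FPKM in both IP libraries. The Fn1 call was lost after quantile normalization (limma adjusted P = 0.218) and with no minimum level (limma adjusted P = 0.0856). The product of the nidogen gene Nid1 links the laminin and collagen networks. Nid1 and the perlecan gene Hspg2 were under 1 FPKM throughout, with IP means 10.3-fold and 5.77-fold lower. Nid1 passed in the fit from a mean of 0.1 FPKM (limma adjusted P = 0.00504), but Hspg2 did not (limma adjusted P = 0.0514). Nid2 was listed at 0 in every library.

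Of 27 genes for collagen biosynthesis, 23 were tested, of which 15 were lower, none higher and 8 did not pass. The shares over all genes in the fit from a mean of 0.1 FPKM were 33.6% lower and 30.4% higher. Of the 19 at the higher minimum, 6 were under 1 FPKM in both IP libraries, Pcolce and Serpinh1 among them. The lower ones included genes whose products act on procollagen. Bmp1, which removes the C-terminal propeptide, had means of 7.75 FPKM in input and 1.68 FPKM in IP (log2 change -1.70, limma adjusted P = 5.57e-05). Pcolce, the enhancer of that cleavage, had a log2 change of -1.66 (limma adjusted P = 0.000235, or 0.000515 from a mean of 0.1 FPKM), and Serpinh1, the collagen chaperone HSP47, -1.44 (limma adjusted P = 0.000128, or 0.000274 from a mean of 0.1 FPKM). At the higher minimum 6 did not pass, P4ha3, P4hb, Plod3, Leprel4 (P3h4), Crtap and Ppib, of which P4hb and Ppib are general folding enzymes of the endoplasmic reticulum. Ppib measured 52.2 FPKM in input and 58.3 FPKM in IP (log2 change 0.16, limma adjusted P = 0.129).

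Of 13 collagen and laminin receptor genes, 11 were tested, with 6 lower, 0 higher and 5 not passing. Among all genes in the fit from a mean of 0.1 FPKM, 33.6% were lower and 30.4% higher. Ddr1, a receptor tyrosine kinase for collagen, had a log2 change of -1.04 (limma adjusted P = 7.24e-05). The laminin receptors Itga6 and Dag1 had changes of -0.71 (limma adjusted P = 0.0012, or 0.00141 from a mean of 0.1 FPKM) and -0.69 (limma adjusted P = 0.000222), and Itga7 and Itgb1 also fell. Itga6 and Itga7 were under 1 FPKM in both IP libraries. For Itga7 the limma adjusted P was 0.0024 from a mean of 0.1 FPKM. The Itga6 call was lost after quantile normalization (log2 change -0.16, limma adjusted P = 0.2). Itga3, the α3 subunit of a laminin-binding integrin, measured 3.30 FPKM in IP and 2.60 FPKM in input (log2 change 0.26, limma adjusted P = 0.0453, or 0.0558 from a mean of 0.1 FPKM). The Itga3 call was lost after rescaling, with a log2 change of 0.00, and when either input replicate or IP replicate 1 was left out. Bcam, a receptor for laminin α5, did not pass.

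The netrins are guidance proteins that share the laminin N-terminal fold. Of 6 genes 5 were tested, with 1 higher and 3 lower, against 30.4% and 33.6% of all genes in the fit from a mean of 0.1 FPKM. Ntn4, which binds to laminin γ chains, measured 0.799 and 0.609 FPKM in input and 2.55 and 3.02 FPKM in IP, a 3.95-fold rise (log2 change 1.15, SE 0.11, limma adjusted P = 0.000219, or 0.000427 from a mean of 0.1 FPKM). Ntn4 passed the minimum of 1 FPKM through IP alone. Ntng1 and Ntng2, membrane-linked netrins of presynaptic axons, were lower with log2 changes of -0.49 and -0.67 (limma adjusted P of 0.00275 and 0.0016), and Ntn1 did not pass. The Ntng1 call was lost after quantile normalization (limma adjusted P = 0.0519) and the Ntng2 call with no minimum level (limma adjusted P = 0.0534).

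RNAs that mark the cells known to make collagen and laminin were also mostly lower in IP. They are counted in the fit from a mean of 0.1 FPKM, in which 33.6% of all genes were lower and 30.4% higher. The summed level of 9 fibroblast and meningeal markers was 38.9 and 45.7 FPKM in input and 3.70 and 4.53 FPKM in IP, with 8 of 9 tested lower. Dpt, of this list, was the other way, at 0.162 and 0.126 FPKM in input and 0.228 and 0.308 FPKM in IP, and did not pass. That of 9 mural cell markers was 30.7 and 32.9 FPKM in input and 4.37 and 5.55 FPKM in IP, with 6 of 7 tested lower. Kcnj8 was listed at 0 in both IP libraries and Tagln in all 4 libraries. That of 9 endothelial markers was 9.03 and 7.74 FPKM in input and 3.15 and 2.67 FPKM in IP, with 6 of 9 tested lower. Esam, of this list, overlapped at 1.75 and 1.52 FPKM in input and 1.78 and 1.01 FPKM in IP, and did not pass. It made up a large part of the endothelial sum in IP, so the ratio of that list depends much on it. The ratios of input to IP were 10.3, 6.42 and 2.88 for these lists, beside 7.48 for the fibrillar, 5.59 for the type VI and 4.61 for the type IV genes. Markers of oligodendrocytes (6 of 6 tested), their precursors (5 of 5), microglia (5 of 5) and astrocytes (5 of 6) were lower as well, with ratios from 2.93 for astrocytes to 15.3 for microglia. Of 5 ependymal and choroid plexus markers, 3 of 5 tested were lower. The 5 summed to 181.9 and 15.1 FPKM in input and 12.5 and 3.30 FPKM in IP. Most of this was Ttr in input replicate 1, at 172.4 and 9.66 FPKM in input and 10.4 and 1.31 FPKM in IP. Foxj1 measured 2.44 and 2.25 FPKM in input, and Kcnj13 2.73 and 1.34 FPKM. Whether the pools differed in this tissue was not tested. All 8 markers of GABAergic Npy and Sst neurons were higher, 7 of them after rescaling, and of 6 glutamatergic markers 4 were lower. The part of these cell types in the members' levels was not tested.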

How the data were processed

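The authors sequenced single-end 100-base reads and, per the labels' protocols, aligned them with TopHat to the mm10 UCSC annotation and made gene levels with Cufflinks. The deposited FPKM values are normalized per kilobase of transcript and by library depth, with a 95% confidence interval, per the file headers. They are not counts, so no count model was used. Of 24490 entries per library, 8 that failed and 1284 small RNA entries were left out, and the entry with the highest mean was kept per symbol, leaving 22757 genes. log2(FPKM + 1) was fitted with limma 3.58.1 (trend, no block, R 4.3.3) over genes at 1 FPKM in 2 libraries, with member and listed genes named. The values of 1 member are not reported here. The fit was tested on simulated data. Alternatives were the pseudocount, minimum level, scaling, transcript length, a replicate block and leaving out each library. The design text speaks of each IP and its input, but does not say that the replicate numbers match them. Deviations of same-numbered libraries correlated at 0.159, and 2 pairs do not settle the pairing. The members and lists were chosen with earlier results of these data known. Promoters came from RefSeq GRCm38.p6.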

Additional observations from a re-analysis of the deposited data

How the results depend on the processing

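As reported, 11 collagens and 3 laminins were lower and 1 collagen, Col25a1, and 0 laminins higher. In the same fit 4205 of all 12416 genes were lower and 4597 higher. With no minimum level 28 collagens and 7 laminins were lower, as were 4078 of all 22757 genes. With a minimum of 5 FPKM 1 collagen was, as so few members reach that level, and 2437 of all 9009 genes were. From a mean of 0.1 FPKM (chosen after seeing the data) the counts were 26 and 8, and after rescaling 27 and 10. After quantile normalization they were 13 and 4 with 1 laminin, Lamb3, higher. Among all 15222 genes of that fit 5122 were lower, 7988 after rescaling and 4057 after quantile normalization. Leaving out 1 library in turn gave 14 to 24 collagens and 6 to 8 laminins in that fit, and 10 to 11 collagens and 3 laminins in the fit from 1 FPKM. With the replicate block the latter still gave 11 and 3 lower and 1 higher, no call among the 17 members changed, and the fit from a mean of 0.1 FPKM gave 24 and 8. No laminin passed the minimum of 5 FPKM, so that fit has no laminin count. Other settings left these counts within 1.5 times.

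Some log2 changes near 0 changed sign, and the cause was not tested. After quantile normalization these were Col19a1 (0.097, or 0.041 from a mean of 0.1 FPKM), Col9a2 (0.314 in both fits), Lamb1 (0.158 in both fits), Col9a1 (0.054) and Lama1 (0.008). Removing the length trend gave 0.035 for Lamb1. Rescaling gave -0.071 for Col14a1 and -0.185 for Lamb3. Leaving out 1 library gave Col9a2 values from -0.22 to 0.107, positive without input replicate 2 (0.107) and IP replicate 1 (0.004). Without input replicate 1 or IP replicate 2, Col14a1 was -0.017 or -0.028 and Lamb3 -0.024 or -0.025. Over the 17 tested members and the settings planned at the start, 210 values kept direction and side of the threshold, 6 lost the call, 6 changed sign and 1 gained a call. Depth limits the members under 1 FPKM, and 11 of them, under a mean of 0.1 FPKM, were tested only in the fit with no minimum level.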
